A study of Mus musculus with 2 samples.

Results

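Open chromatin of mouse calf muscle was examined at 9 genes of titin, nebulin and the Z-disc, chosen by symbol from the GENCODE release 21 annotation: Ttn, Neb, Actn2, Actn3, Ldb3, Myoz1, Tcap, Myot and Flnc. All 9 were found among 21851 protein-coding genes with an annotated start site. The tissue was the gastrocnemius, taken at an age of 36 days from 2 male mice of the strain B6CASTF1/J, first-generation hybrids of C57BL/6J and CAST/EiJ, with 1 library each, named replicate 1 and replicate 2. They form 1 group with no treatment and no other tissue, age or genotype, so no difference between conditions could be tested and no p-value between groups is given. The labels name separate animals and give them a common donor identifier. DNase I cuts DNA where chromatin is open in isolated nuclei, and the nuclei came from whole tissue. In such bulk tissue, fewer nuclei of a cell type and weaker opening per nucleus cannot be told apart. Positions are on mm10 (GRCm38).

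The sarcomere is the contractile unit of striated muscle, and the Z-disc is the protein lattice at its ends where actin filaments of neighbouring sarcomeres are anchored. Titin runs from the Z-disc to the M-band as a molecular spring and ruler, and nebulin runs along the thin filament and takes part in setting its length. Alpha-actinins cross-link actin at the Z-disc, where Ldb3 (ZASP), myozenin, telethonin, myotilin and filamin C bind one another and couple the lattice to signalling. Mutations in several of these genes cause muscle disease in humans.

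Open chromatin was measured by DNase-seq. Each library came with a shorter and a longer list of peaks, the longer one holding weaker peaks as well, and the shorter lists are used unless stated. The shorter lists held 50760 peaks in replicate 1 and 49230 in replicate 2. A peak's value is the authors' signal height. Values move in steps (0.0123 for replicate 1, 0.00657 for replicate 2), but the scaling is not stated and the depth in reads is unknown, so values are ranked within a library only. Promoter peaks are those no more than 500 bp from a coding start site of the gene, and the highest gives its value. As a check of the tissue label, 5 of 8 skeletal muscle fibre markers had a promoter peak in both libraries, against 0 of 6 heart markers. In both longer lists 8 of 8 fibre markers and 1 of 6 heart markers had one. Over all protein-coding genes the shares were 54.2% in the shorter and 59% in the longer lists. Endothelial markers had one in both libraries at 2 of 5 genes, fibro-adipogenic progenitor markers at 3 of 4, smooth muscle and pericyte markers at 2 of 4 and macrophage markers at 0 of 4. In both longer lists these counts were 5 of 5, 3 of 4, 2 of 4 and 0 of 4. The part of these cell types in the values below was not tested.

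The sequences below are promoters and intronic regions of member genes, printed 5′ to 3′ on the strand of the gene. The Ttn promoter, from RefSeq on GRCm38.p6, is shown because it was open in both animals. The intronic regions of Neb, Ldb3 and Flnc are shown because they were open in both animals away from the promoter. Capitals mark bases that lay in a footprint of both libraries, a footprint being a short stretch that the authors called as protected within open chromatin.
Ttn promoter, chr2:76982498-76982797, minus strand: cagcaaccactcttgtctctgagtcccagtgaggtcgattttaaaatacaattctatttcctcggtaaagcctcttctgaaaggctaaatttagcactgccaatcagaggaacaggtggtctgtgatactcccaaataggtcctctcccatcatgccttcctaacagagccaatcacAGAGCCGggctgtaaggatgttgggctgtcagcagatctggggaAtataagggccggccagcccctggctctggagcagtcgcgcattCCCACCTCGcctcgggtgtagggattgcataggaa
Neb intron, chr2:52371181-52371340, minus strand: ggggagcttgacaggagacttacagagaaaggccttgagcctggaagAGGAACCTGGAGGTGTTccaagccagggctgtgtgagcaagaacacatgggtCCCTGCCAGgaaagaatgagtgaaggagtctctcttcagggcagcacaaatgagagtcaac
Ldb3 intron, chr14:34549461-34549640, minus strand: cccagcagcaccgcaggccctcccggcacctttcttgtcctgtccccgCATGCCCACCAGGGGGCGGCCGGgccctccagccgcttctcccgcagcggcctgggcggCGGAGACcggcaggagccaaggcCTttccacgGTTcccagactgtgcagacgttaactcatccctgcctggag
Flnc intron, chr6:29436581-29436840, plus strand: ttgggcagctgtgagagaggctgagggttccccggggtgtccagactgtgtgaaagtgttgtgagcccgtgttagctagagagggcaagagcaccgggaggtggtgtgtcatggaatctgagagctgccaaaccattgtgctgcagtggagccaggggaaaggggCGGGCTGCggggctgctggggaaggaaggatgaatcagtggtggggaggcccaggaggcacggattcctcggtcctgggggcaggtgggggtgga
The promoters of Actn2, Ldb3 and Flnc, also from RefSeq on GRCm38.p6, are shown for the contrast in composition, from the GC-rich Flnc promoter to the Ldb3 promoter with its CArG box. Capitals mark searched motifs here: GGGCGG (GC box), TCAGGTT (MEF3 site), TGTGGT (RUNX), TGANTCA (AP-1), CATTCC (MCAT) and the CArG box, on either strand. A pair of GC boxes in the Flnc promoter overlap each other.
Actn2 promoter, chr13:12340683-12340982, minus strand: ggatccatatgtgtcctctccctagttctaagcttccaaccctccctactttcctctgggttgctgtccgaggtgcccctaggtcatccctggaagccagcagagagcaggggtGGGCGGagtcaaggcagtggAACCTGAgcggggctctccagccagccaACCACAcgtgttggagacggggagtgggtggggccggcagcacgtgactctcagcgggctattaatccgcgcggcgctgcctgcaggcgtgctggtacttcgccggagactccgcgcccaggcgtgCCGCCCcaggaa
Ldb3 promoter, chr14:34588632-34588931, minus strand: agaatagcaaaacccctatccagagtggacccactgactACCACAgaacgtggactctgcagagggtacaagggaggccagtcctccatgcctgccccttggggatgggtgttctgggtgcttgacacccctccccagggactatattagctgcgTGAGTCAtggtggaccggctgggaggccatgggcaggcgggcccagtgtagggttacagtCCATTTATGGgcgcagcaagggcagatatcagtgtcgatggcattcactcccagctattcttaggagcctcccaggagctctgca
Flnc promoter, chr6:29432903-29433202, plus strand: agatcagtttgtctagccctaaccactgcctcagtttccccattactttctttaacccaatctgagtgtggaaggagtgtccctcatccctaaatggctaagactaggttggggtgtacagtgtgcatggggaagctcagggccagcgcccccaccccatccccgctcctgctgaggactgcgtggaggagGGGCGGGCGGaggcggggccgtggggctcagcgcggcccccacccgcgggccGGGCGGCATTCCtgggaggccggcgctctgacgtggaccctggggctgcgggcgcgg

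The promoter peaks called at these genes were weak. A promoter peak in both libraries was found at 5 of 9 genes, Ttn, Actn2, Actn3, Tcap and Flnc. This share, 55.6%, was near the 54.2% of all protein-coding genes. Neb, Ldb3 and Myoz1 had one in replicate 1 alone, against 1.59% of all genes. No member had one in replicate 2 alone, against 2.88%, and Myot had one in neither shorter list, against 41.3%. In the longer lists 9 of 9 had one in both libraries, against 59% of all genes, and 0 had one in replicate 1 or replicate 2 alone, against 1.69% and 3.45%. Neb counts in each list through an internal start site, described below. The 8 promoter values of replicate 1 ran from 1.90 to 3.76 with a median of 2.48, against a median of 5.57 over the 12197 coding promoters with a peak. In replicate 2 the 5 values ran from 1.50 to 1.94 with a median of 1.65, against 3.77 over 12478 promoters. Every one of these member values lay below its library's median.

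**Figure D1:**
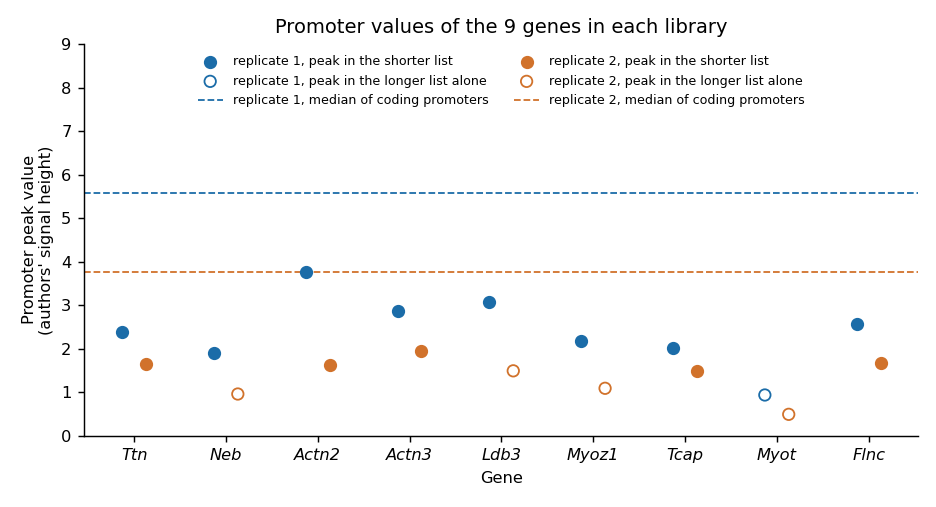
Promoter peak value (authors' signal height, y axis) of each of the 9 genes (x axis) in replicate 1 (blue) and replicate 2 (orange); filled points are peaks of the shorter list, open points are peaks of the longer list alone, and dashed lines are the medians of all coding promoters with a peak, 5.57 and 3.77. All points lie below the line of their library.

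The giant filament genes differed in how their promoters were called. Ttn (ENSMUSG00000051747.14, chromosome 2, 76703980 to 76982547, minus strand) spans 278568 bp and had promoter values of 2.39 in replicate 1 and 1.65 in replicate 2. Its peaks lay on the start site at 76982547, from 76982461 to 76982660 in replicate 1 and from 76982492 to 76982586 in replicate 2. These values exceeded those of 20.3% and 17.9% of coding promoters with a peak. Neb (ENSMUSG00000026950.17, chromosome 2, 52136647 to 52378474, minus strand) spans 241828 bp and had a value of 1.90 in replicate 1. In replicate 2 its peak was in the longer list alone, at 0.959. The Neb peak, 52335181 to 52335360 in replicate 1, lay 47 bp from an internal start site at 52335134. No peak of either library lay within 500 bp of the outer start at 52378474, in the shorter or the longer lists. The lowest q-value within the Neb promoter windows was 8.84e-10 in replicate 1 and 0.00213 in replicate 2, just over the limit of 0.001. Each peak of the shorter lists in these loci held a base at or under that limit.

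Both alpha-actinin promoters were open in both animals. Actn2, which encodes the alpha-actinin of heart and of all skeletal fibre types, lies on chromosome 13 (12269426 to 12340760, minus strand) and had values of 3.76 in replicate 1 and 1.62 in replicate 2. It held the highest value of the 9 genes in replicate 1 but not in replicate 2. Its ratio of replicate 1 to replicate 2, 2.33, was as high as or higher than that of 95.8% of the 11849 genes with both values, whose median ratio was 1.47. Actn3, the alpha-actinin of fast fibres, lies on chromosome 19 (4861216 to 4877909, minus strand) and had values of 2.86 and 1.94, a ratio near the median of all genes (50.2% at or below it). It held the highest value of the 5 called in replicate 2. A stronger peak with values of 8.83 and 6.68 lay close by at 4878461 to 4878780, on the start site of Zdhhc24, and a promoter window of 1000 bp would take that peak for Actn3. Of their widely expressed paralogs, Actn4 had a stronger promoter in both libraries, at 14.8 and 7.55. Actn1, at 2.81 and 2.31, lay below Actn2 and Actn3 in replicate 1 and above them in replicate 2.

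Among the Z-disc adaptor genes, Ldb3 and Myoz1 were called in replicate 1 alone. Ldb3 (chromosome 14, 34526603 to 34588682, minus strand), whose PDZ-LIM protein binds alpha-actinin, had a value of 3.07 in replicate 1 and 1.49 in the longer list of replicate 2. The lowest q-value of its promoter windows was 2.67e-11 in replicate 1 and 0.00948 in replicate 2. Myoz1 (chromosome 14, 20649107 to 20656540, minus strand), the calcineurin-binding myozenin of fast fibres, had 2.18 in replicate 1 and 1.09 in the longer list of replicate 2. Its q-value in replicate 2, 0.00115, lay just over the limit. Among the longer lists, the ratios of Neb, Ldb3, Myoz1 and Myot were at or above those of 86.2%, 89.4%, 87.1% and 82.3% of the 12896 genes with both values. These are the 4 promoters missing from the shorter list of replicate 2, and Myot is missing from that of replicate 1 as well. A low value in replicate 2 both raises this ratio and keeps a promoter out of that list, so the ratios add no separate evidence. Actn2, which is in both shorter lists, had a longer-list ratio at or above that of 95.9% of genes.

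Tcap, which encodes telethonin, the titin cap, lies on chromosome 11 (98383811 to 98384953, plus strand). It had promoter values of 2.02 in replicate 1 and 1.50 in replicate 2, from peaks that did not overlap: 98383781 to 98383920 on the start site in replicate 1, and 98383601 to 98383700 in replicate 2, which is 111 bp upstream. Flnc, encoding filamin C, the muscle filamin of Z-discs and the membrane, lies on chromosome 6 (29433256 to 29461883, plus strand) and had values of 2.58 and 1.68. Flna, a widely expressed paralog, had 4.33 and 2.47. Myot, which encodes myotilin and lies on chromosome 18 (44334074 to 44355724, plus strand), had the weakest promoter of the 9 in both libraries. Its longer-list peaks had values of 0.937 and 0.493, and the lowest q-value at its promoter was 0.0183 in replicate 1 and 0.0054 in replicate 2.

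Taken whole, promoters included, the 9 loci (each the gene body and 10 kb either side) held 79 merged regions over 909.3 kb. Of these 23 were found in both libraries, 26 in replicate 1 alone and 30 in replicate 2 alone. Of the 23 replicated regions 10 lay within 500 bp of a start site. Of the rest, 2 touched an exon, 8 lay in introns and 3 between genes. By distance, 10 of the 23 were distal, over 1 kb from all annotated start sites. Coding promoters of neighbouring genes made up 4 of the 23: those of Ctsf (7.85 and 4.02) and Zdhhc24 beside Actn3, of Usp54 (10.2 and 6.49) beside Myoz1, and of Atp6v1f (5.70 and 3.60) beside Flnc. The remaining 19 are the regions described below, and not all of them lie in a member gene. Of the 23, 14 lay in the body of a member, and 9 had the coding start site of another gene nearest. At a reciprocal overlap of 50% the count of 23 was 12 and that of distal regions 4, and in the longer lists 43 and 21.

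**Figure D2:**
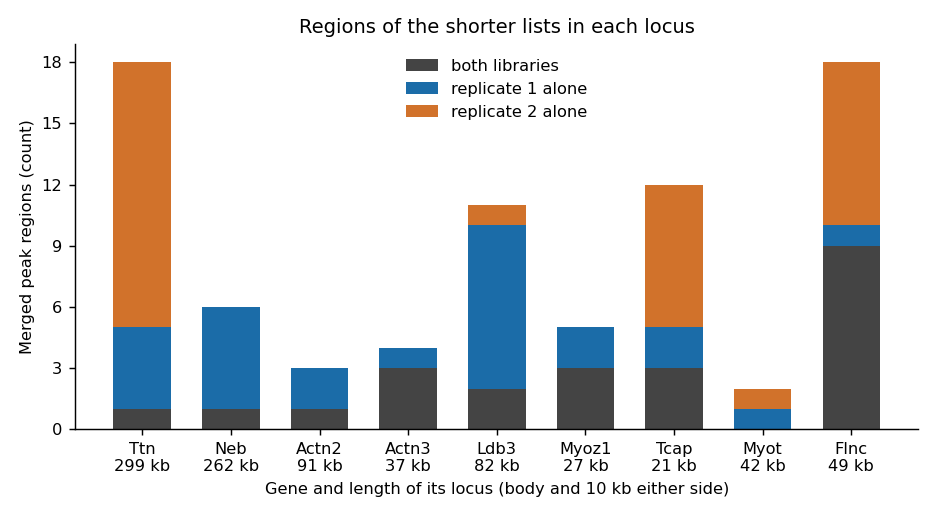
Merged peak regions of the shorter lists (count, y axis) in each locus (x axis, with its length), stacked by whether both libraries (grey), replicate 1 alone (blue) or replicate 2 alone (orange) held a peak. Ttn and Flnc have 18 regions each, of which 1 and 9 were found in both libraries.

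Flnc had the densest set of replicated regions of the 9 loci in the shorter lists, whereas in the longer lists Tcap had 28.38 per 100 kb and Flnc 20.56. The Flnc locus held 9 in the shorter lists, or 18.51 per 100 kb, a density that 98.4% of protein-coding genes did not exceed, against a median of 2.56 over all genes. Genes within 1.5-fold of its length had a median of 2 replicated regions (4664 genes). Its promoter region, 29433121 to 29433900, was followed by 5 intronic regions between 1.04 and 6.14 kb from the gene start, with values of 1.47 to 2.74 in replicate 1 and 1.20 to 2.31 in replicate 2. Ranked by the lower of their percentiles in the 2 libraries, the strongest, 29434021 to 29434580, had 2.74 and 2.31, above the promoter itself in both libraries. The next, 29436541 to 29436880, had 2.16 and 1.49. It was followed in rank by 29435241 to 29435720 with 1.90 and 1.58. In replicate 2 taken alone, 29439221 to 29439563 (1.87 and 1.79) ranked second. A further 8 regions were called in replicate 2 alone and 1 in replicate 1 alone.

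At Ldb3 the replicated regions lay deep in the gene. The locus had 2, both intronic and distal, at 39.24 and 39.79 kb from the gene start. The stronger, 34549241 to 34549640, had 4.04 in replicate 1 and 2.52 in replicate 2, both above the promoter values. Its neighbour at 34548641 to 34549140 had 2.56 and 1.99. Replicate 1 had 8 further regions, 6 of them in introns, and 4 of the 8 were found in both longer lists, among them the promoter and the intronic regions 14.37, 18.20 and 22.74 kb from the gene start. The longer lists gave 8 replicated regions at Ldb3, of which 2 are in no shorter list.

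**Figure D3:**
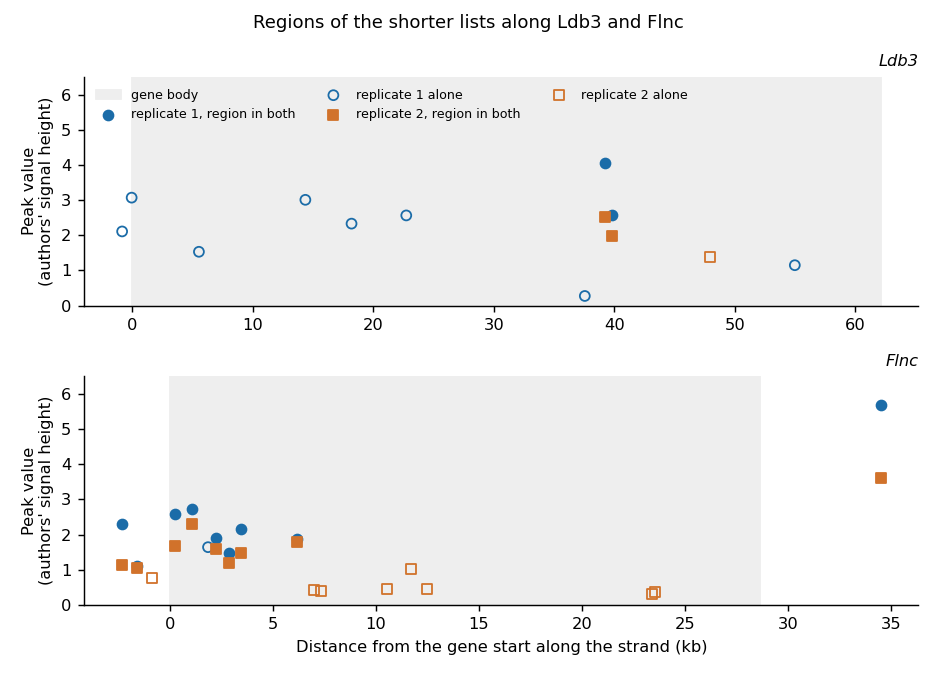
Peak value (authors' signal height, y axis) of each region of the shorter lists against distance from the gene start along the strand (x axis, kb) at Ldb3 (top) and Flnc (bottom); filled symbols are regions found in both libraries, open symbols regions of 1 library, and the grey band is the gene body. Replicated regions in the Flnc body lie in its first 6.14 kb, 2 lie upstream and 1 beyond the gene, and those of Ldb3 at about 39.24 to 39.79 kb.

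The other loci had 0 to 3 replicated regions each, neighbouring promoters included. Tcap, Myoz1 and Actn3 had 3 each, or 14.19, 10.94 and 8.18 per 100 kb. These densities were not exceeded by 96.1%, 91.6% and 84.9% of protein-coding genes. Neb had 1 in its 261.8 kb, the intronic region printed above, 7.21 kb from the outer gene start, with 2.80 in replicate 1 and 0.867 in replicate 2. It ranked at the 70.0th percentile of peaks in replicate 1 and at the 29.0th in replicate 2. In the shorter lists Ttn had its promoter alone in 298.6 kb, Actn2 its promoter alone in 91.3 kb, and Myot none. Genes of like length to Ttn and Neb had a median of 3 (777 and 913 genes). Those of like length to Actn2 had a median of 2, to Actn3, Myoz1 and Myot 1, and to Tcap 0. Near Myoz1, 20651841 to 20651980 (2.47 and 1.39) lay in the gene beside the start of a non-coding Myoz1 transcript. The strongest region near Myoz1 apart from the Usp54 promoter, 20661061 to 20661260 (8.27 and 3.77), lay in an exon of Synpo2l, which encodes another Z-disc protein. Tcap had a region that began at its 3′ end and ran on downstream, 98384941 to 98385460, with 2.5% of its bases in exons. Its values, 2.77 and 2.93, were above those of the Tcap promoter in both libraries. Others lay further downstream at 98385601 to 98385900 (2.05 and 0.946) and beside a Stard3 start site at 98377873 to 98378102 (1.52 and 1.01). In the longer lists the replicated regions were 3 at Ttn, 4 at Neb, 1 at Actn2, 2 at Myot, 4 at Actn3, 5 at Myoz1 and 6 at Tcap.

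Ttn showed a pattern of replicate 2 alone. In replicate 2, 13 regions lay between 243.4 and 271.5 kb from the gene start, in the exon-rich stretch 76710936 to 76739188, where exons make up 72.0% of bases. Only overlapping peaks were merged, so abutting ones count apart. This holds for 76724924 to 76725140, 76725141 to 76725480 and 76725481 to 76726720, which run on without a gap. Each of the 13 lay wholly in exons. Their values were low, 0.223 to 0.427, at percentiles 6 to 12.2 of the peaks in replicate 2. Over the Ttn body beyond 1 kb from start sites, 3562 bases reached a q-value of 0.001 or less in replicate 2, and 100% of them lay in exons, which make up 42.1% of that sequence. Replicate 1 had 250 such bases, of which 12.4% lay in exons. No peak of replicate 1 lay in the largest Ttn exon (76736064 to 76753169, 17106 bp), which held 5 of replicate 2. The GC content of the 13 regions had a median of 47.7%, against 43.9% over the stretch.

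**Figure D4:**
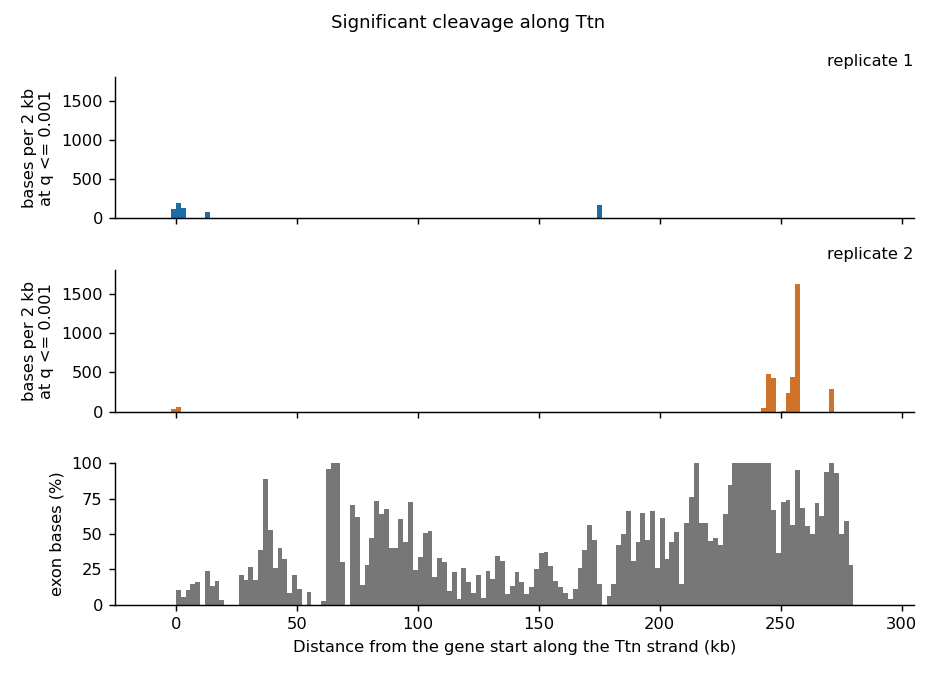
Bases at or under a q-value of 0.001 per 2 kb along Ttn in replicate 1 (top) and replicate 2 (middle), and the share of exon bases in the same bins (bottom), against distance from the gene start (x axis, kb). Replicate 2 has a cluster near 243.4 to 271.5 kb that replicate 1 lacks.

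Exonic regions of replicate 2 were also called in other loci. Regions touching an exon and over 500 bp from all start sites made up 23 of the 30 found in replicate 2 alone (13 at Ttn, 6 at Flnc, 3 in the Tcap locus and 1 at Myot), against 1 of the 26 found in replicate 1 alone. Over the genome these regions made up 9.98% and 3.76%. The 3 in the Tcap locus lay outside the Tcap gene body, with the nearest start sites those of Pnmt and Pgap3. Abutting regions, as at Ttn, count apart in the totals of these loci. With regions at start sites counted too, 24 of the 30 and 4 of the 26 held an exon base. The base counts that follow leave out sequence within 1 kb of a start site. Within the Myot body all 235 significant bases of replicate 2 lay in exons, against 0 of 67 in replicate 1. The Flnc body had 4291 significant bases in replicate 2, of which 14% lay in exons, and 1609 in replicate 1 with 0 in exons. Exons make up 30.8% of the Flnc body, above both of its shares, and 10.3% of the Myot body. At Neb, with 20296 such exon bases, and at Ldb3, with 5440, none was significant in either library. Over all coding genes 9.38% of significant body bases lay in exons in replicate 1 and 15.4% in replicate 2, with exons at 5.85% of body sequence. Replicate 2 has the finer value step, and the part of depth in this difference was not tested.

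**Figure D5:**
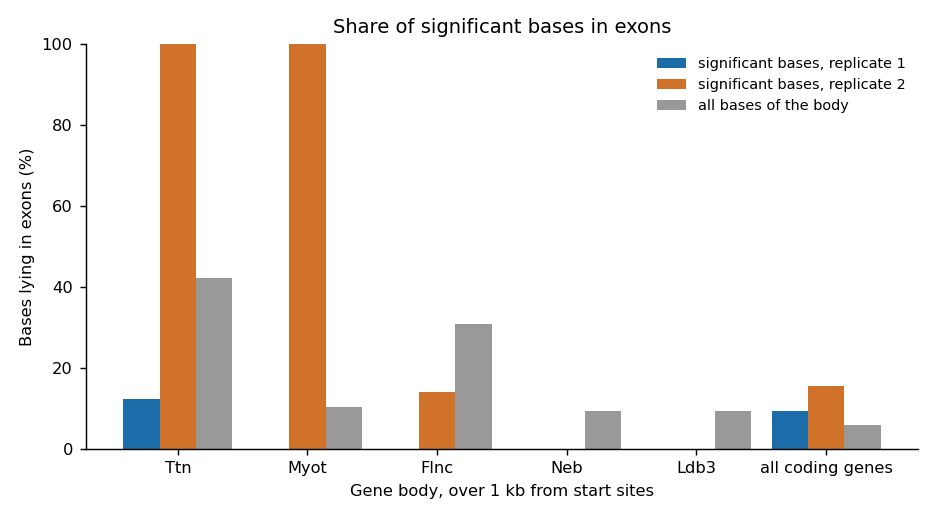
Share of significant bases lying in exons (%, y axis) in the bodies of Ttn, Myot, Flnc, Neb, Ldb3 and all coding genes (x axis) beyond 1 kb from start sites, for replicate 1 (blue) and replicate 2 (orange), beside the share of all body bases in exons (grey). In replicate 2 the share is 100% at Ttn and Myot and 15.4% over all coding genes; bars missing for Myot, Flnc, Neb and Ldb3 are shares of 0.

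How far the libraries agreed differed from locus to locus. Of the bases at or under a q-value of 0.001 in the loci, 12093 in replicate 1 and 19260 in replicate 2, 7156 were common to both, which is 59.2% of replicate 1 and 37.2% of replicate 2. Genome-wide these shares were 76.8% and 57.4%. At Flnc 99.0% of significant bases of replicate 1 were significant in replicate 2, at Actn3 73.3% and at Tcap 71.2%. At Myoz1 the share was 69.8%, at Actn2 47.0%, at Ldb3 22.4%, at Ttn 13.5%, at Neb 8.37% and at Myot 0%. Of the significant bases of replicate 2, 40.4% at Flnc, 37.8% at Tcap, 80.0% at Actn3, 56.7% at Myoz1, 38.6% at Ldb3, 87.0% at Actn2, 2.60% at Ttn and 0% at Myot were significant in replicate 1. At Neb all 99 were. These shares cover whole loci, with the neighbouring promoters named above. In the gene body alone, 106 of 273 significant bases of replicate 1 at Actn3 were common to both libraries. The same count was 129 of 474 at Myoz1 and 121 of 448 at Actn2, but 1992 of 1992 at Flnc and 234 of 234 at Tcap.

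Shared footprints were found at 7 of the 9 loci. The loci held 166 footprints in replicate 1 and 251 in replicate 2, and 63 of replicate 1 (38.0%) and 58 of replicate 2 (23.1%) overlapped one of the other library, against 52.2% and 33.1% genome-wide. The Flnc locus had 15 shared footprints counted in replicate 1, Ldb3 13, Myoz1 12, Actn3 8, Tcap 7, Ttn 5 and Neb 3. Those of the Actn3 locus lay at neighbouring genes, 3 in the Ctsf and 5 in the Zdhhc24 promoter region, and the Actn3 promoter region held 0. In the Myoz1 locus 4 lay in the Usp54 promoter region and 4 in the Synpo2l exon. In the Flnc locus 3 lay in the Atp6v1f promoter region. Actn2 and Myot had 0. Of the 19 replicated regions, 12 held a shared footprint. The matching shares over all replicated regions and over all gene loci are not given here. Neither this count nor that of 7 loci can be read as high or low. In the Ttn promoter a shared footprint overlapped the end of an MCAT element at bases 262 to 267 of the printed sequence. A MEF2 site at bases 85 to 94 lay in no footprint, upstream of both peaks. The MEF2 site, the target of muscle MEF2 factors, was found in 3.2% of 32851 RefSeq promoters of the same length and MCAT, the target of TEAD factors, in 14.7%. In the Neb intron the 2 shared stretches, 26 bases in all, held no searched motif. In the Ldb3 intron the longest shared stretch held a match to a CTCF consensus, searched after this sequence was seen, at bases 54 to 67. It overlaps a GC box at bases 62 to 67. That consensus was found in 2 of the 10 distal regions (Ldb3 and the Synpo2l exon), against 11.1% of all distal replicated regions. The Flnc intron held a GC box at bases 163 to 168 that a footprint of each library overlapped in part, and a MyoD-type E-box at bases 6 to 11 that lay in none.

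Motif counts in the 19 regions stand beside the shares over all replicated regions, with no test. Motifs were searched on both strands in 300 bp around each region's centre. A GC box, bound by SP and KLF factors, was found in 6 of the 10 distal regions (3 of 6 at Flnc, 2 of 2 at Ldb3 and the Synpo2l exon), against 16.1% of all distal replicated regions. The MyoD-type E-box CAGCTG was found in 5 of the 19 regions, 3 at Flnc and 2 at Tcap, 26.3% against 25.8% of all replicated regions. The NFI motif TTGGC was found in 16 of 19, 84.2% against 56.3%. MEF2 and CArG sites were found in 1 region each, 5.3% against 2.1% and 1.2%. The CArG box, the target of serum response factor, was at the Flnc intronic region nearest the promoter. MCAT was found in 3 (15.8% against 14.3%). The CArG box and the AP-1 site of the Ldb3 promoter lay in none of the 3 footprints of replicate 1 there. Replicate 2 had 0 footprints in that promoter, so it tells nothing about these sites. The 23 replicated regions had a median GC content of 60.3%, against 57.3% over all replicated regions.

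Partners of these proteins had promoters from strong to absent. The 50 partner genes, listed with earlier results of these data known, had a promoter peak in both libraries at 31 (62.0%), against 54.2% of all genes. Z-disc partners had it at 16 of 22. They were led by Bag3, a co-chaperone that clears damaged filamin (13.3 and 7.14), Dnajb6, a chaperone (11.0 and 8.24), and Pdlim5, a PDZ-LIM relative of Ldb3 (9.64 and 7.76). Csrp3, the muscle LIM protein, and Igfn1 had none in any list. Titin-binding and M-band genes had it at 6 of 14, led by the muscle ankyrin repeat genes Ankrd23 (3.74 and 2.92) and Ankrd2 (3.66 and 2.96) and by Mylk2 (4.29 and 2.73), a myosin light chain kinase. Ankrd1, another ankyrin repeat gene, and Capn3, the titin-bound protease, had none in the shorter lists; Ankrd1 had one in both longer lists and Capn3 in that of replicate 2. Thin-filament length genes and nebulin partners had it at 5 of 10, led by the actin-capping genes Capzb (10.2 and 5.37) and Capza2 (9.84 and 5.22) and by Cfl2, muscle cofilin (3.02 and 2.67). Lmod2, leiomodin, and Nebl, nebulette, had none in the shorter lists; Nebl had one in both longer lists and Lmod2 in that of replicate 1. The widely expressed paralogs Actn1, Actn4 and Flna had it as well. In the longer lists the count of partners was 41 of 50 (82.0%), against 59% of all genes.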

How the data were processed

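DNase-seq libraries of 2 animals were analysed from the deposited files. Per the deposited file listing, peaks, footprints and cut-rate tables were made per library on mm10; the aligner, callers, versions and the handling of CAST/EiJ alleles are, in the sources used here, not given. The deposited peak values are a signal height scaled by the authors. The deposited cut-rate tables hold q-values per run of bases, listed below 0.05. The deposited footprints carry a score of 0.01 on every line and were used by position.

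Start sites came from coding transcripts of the GENCODE release 21 basic set. Peaks of both libraries overlapping by 1 bp were merged into replicated regions. Percentiles are within a library. The 9 genes, 50 partners, markers and motifs were chosen with earlier results of these data known. All 9 members are named, with their promoter peaks and up to 3 replicated regions each. In each partner list the 3 strongest genes and 2 without a peak are named, apart from a gene that is not reported here. Actn1, neighbouring promoters and single-library regions were added after their values were seen. RefSeq promoters matched 4 of 9 members (Ttn, Actn2, Ldb3 and Flnc). Overlap, promoter and motif code was tested on simulated data. Python 3.11.15 was used with pandas 2.3.3 and pysam 0.24.0.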

Additional observations from a re-analysis of the deposited data

How the results depend on the processing

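A group of 2 libraries gives no test, and the read depth behind an absent peak is unknown. No paired analysis was possible because the samples form 1 group and no result comes from a test. The count of 5 genes with a promoter peak in both libraries was 9 in the longer lists, 6 with all annotated transcripts and 5 to 8 with either library alone; with peaks at or above their list's median and with windows of 250 or 1000 bp it was 5. The partner count of 31 ran from 24 to 41. The 23 replicated regions were 43 in the longer lists, 12 at a reciprocal overlap of 50%, 14 without flanks, 54 with flanks of 50 kb and 49 to 53 with either library alone. The 10 distal regions were 21 in the longer lists, 6 at or above the median value, 4 at a reciprocal overlap of 50%, 21 with flanks of 50 kb and 25 to 37 with either library alone. The 63 shared footprints were 32 at a reciprocal overlap of 50%, 39 inside peaks, 32 without flanks and 166 to 251 with either library alone. The 7156 shared bases were 14212 at a q-value limit of 0.05, 3161 without flanks and 12093 to 19260 with either library alone. With a window of 1000 bp the Actn3 promoter took the Zdhhc24 peak, 8.83 and 6.68, and the Myoz1 value in replicate 1 was 2.24; with all transcripts that value was 2.47. In regions as called the MEF2 count was 0 in place of 1. Of 96 alternative values, 68 stayed within 1.5-fold (counts) or within 1 SD between the libraries (promoter values; where 1 library alone had a peak, any change counted as a shift). Settings changed the numbers of regions searched or libraries required, and the causes of the other shifts were not tested.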
